A study of Mus musculus with 18 samples.

Results

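The 5 two-colour microarrays of the control group compared liver RNA of juvenile euthyroid mice with a common mouse reference RNA. They were chosen by their titles, which end in control, and are 5 of the 10 arrays and of the 18 samples in the series. The animals were male C57BL/6 pups on post natal day (PND) 15. Their dams drank sugar water without the antithyroid agents given to the hypothyroid group, and the pups received PBS a few hours before sacrifice. One male pup was taken per litter, so each array stands for 1 pup of a separate litter. The arrays are called by their animal numbers, 881, 832, 522, 616 and 391. No array of the hypothyroid group was used.

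The liver at this age is between its fetal and its adult state. Hepatocytes, which make up most of the organ, secrete plasma proteins, burn fatty acids, make glucose and ketone bodies, detoxify ammonia and oxidise drugs, while sinusoidal endothelial, Kupffer and stellate cells line and police the blood spaces. The reference was the Stratagene universal mouse reference, a pool of RNA from mouse cell lines. It is a common yardstick, not a tissue, and was the same on every array. Every value below is a log2 ratio of liver over this reference. A ratio of 0 says that liver and pool gave the same signal after normalization, not that a gene was silent, and a low ratio can come from lines that use a gene heavily. The tests set the ratio against 0 across the 5 livers and leave out the spread of the reference, which was 1 RNA.

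Array 832 ran in the opposite direction to its labels. All 5 samples are labelled with Cy5 on liver, yet as labelled the ratios of array 832 correlated at r = -0.975 with the mean of arrays 881, 522 and 391, and hepatocyte transcripts were bright in its Cy3 channel. Its channels were therefore exchanged before normalization. Array 616 gave weaker ratios than the others, with an SD of 0.729 over the tested probes against 0.999 to 1.09 on the other 4 arrays. Pairs of arrays correlated at r = 0.963 to 0.974 over 32694 probes without array 616, and at 0.863 to 0.896 with it. No control array shared a slide with another, so slide and animal cannot be told apart among them. The slides of arrays 881, 832, 522 and 616 also held hypothyroid arrays, which were not used.

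With median signals and loess, juvenile liver and the reference differed at most genes, in both directions, and most of the large differences were higher in liver. Of 32694 probes tested, 10568 were higher in liver (32.3%) and 10622 were lower (32.5%) at an adjusted p below 0.05. A difference of at least 8-fold in the same test was found for 713 probes higher in liver (2.18%) and for 40 probes lower (0.122%). With 1 probe kept for each of 14826 genes, 5419 genes were higher (36.6%), 5245 were lower (35.4%), 540 were at least 8-fold higher (3.64%) and 29 at least 8-fold lower (0.196%). The median ratio over these genes was 0.03. Normalization centred the ratios of each array, so this median and the near-even split of calls were largely set by it. Higher probes made up 94.7% of the differences of at least 8-fold, and 74.5% with the processed signals of the scanner software in place of the median signals.

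The counts depend on the exchange of channels, on the signal and normalization used and, for the far lower probes, also on array 616. With the processed signals, 1356 probes were at least 8-fold higher and 463 at least 8-fold lower. With median centring in place of loess, 4900 probes were higher and 7252 lower, 71 of them at least 8-fold lower, so most tested probes did not pass. With array 832 read as labelled, 0 probes passed in either direction. On the remaining arrays liver carried Cy5, so a dye effect on a single probe is hard to tell from a small liver difference. With dye orientation as a term, which rests on array 832 alone, 9100 probes were higher and 9175 lower. Of these, 788 were at least 8-fold higher and 58 at least 8-fold lower. With array 832 left out, 9396 probes were higher and 9663 lower, 692 of them at least 8-fold higher and 28 at least 8-fold lower. With array 616 left out, the counts were 11132, 11231, 808 and 86, and these held 708 of the 713 far higher and 40 of the 40 far lower probes found with it.

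The highest ratios belonged to enzymes and secreted proteins of hepatocytes. Rgn, a calcium-binding lactonase of the ascorbate pathway, had log2 ratios of 8.16, 8.36, 8.44 and 8.08 on arrays 881, 832, 522 and 391 and of 5.03 on array 616. Akr1c6, a hydroxysteroid dehydrogenase, had 8.11, 7.67, 8.16 and 8.27, with 4.76 on array 616. Both genes were thus high on all 5 arrays and lowest on array 616. The means over 5 arrays were 7.61 ± 1.45 (SD, n = 5) for Rgn and 7.40 ± 1.49 for Akr1c6, folds of 196 and 168.

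Other genes among the highest 15 were Cyp3a41a, Aadac, Cfi, C4bp, Cyp4a14, Ttpa, Dpyd, Sult1d1, Cyp3a16, Sult2a2, Slc27a2 and Pon1, with means of 6.08 or more and limma adjusted p from 1.52e-06 to 0.000219 over the 15. Array 616 was not low for all of them. Ttpa, the tocopherol transfer protein that loads vitamin E onto lipoproteins, had 6.66, 6.72, 6.86 and 6.13 on the other arrays and 6.33 on array 616. Dpyd, which starts the breakdown of uracil and thymine, had 6.57, 6.86, 6.74 and 6.04, and 6.19 on array 616. Their mean folds over the reference were 93.2 and 89.2, and array 616 lay inside the range of the other arrays for both.

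**Figure D1:**
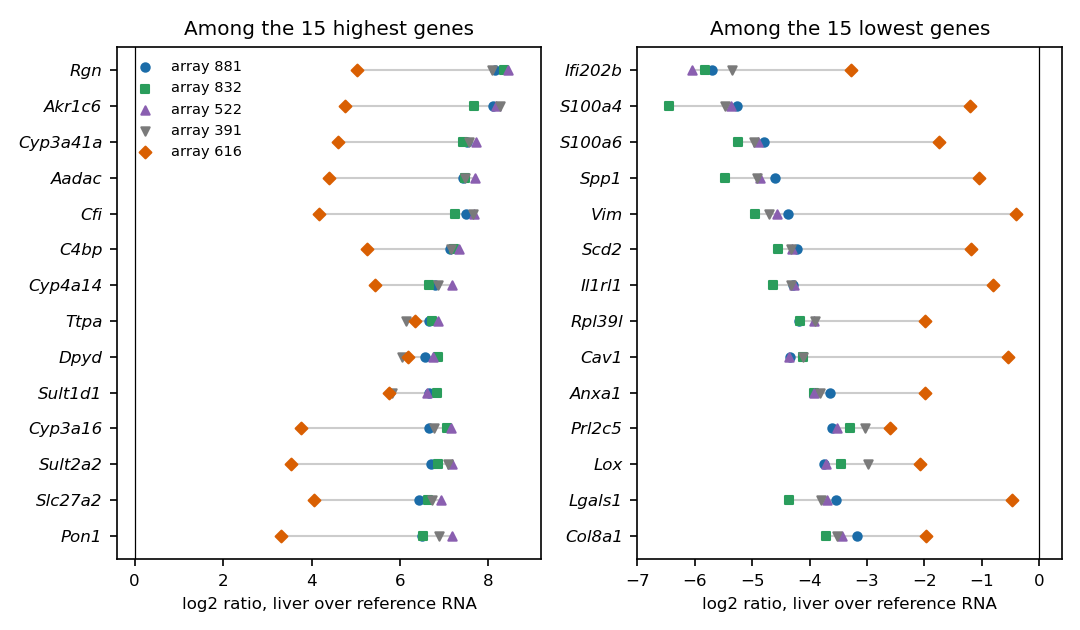
Log2 ratio of liver over reference RNA for genes among the 15 highest (left) and the 15 lowest (right), 1 row per gene and 1 symbol per array, with a grey line from the lowest to the highest array. Array 616 lies nearest to 0 for Rgn (5.03) and S100a4 (-1.20), and among the other arrays for Ttpa (6.33).

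Stretches of promoter are shown for Cyp3a41a and Cyp3a16 because they hold a short motif of the liver factor HNF4, whose own transcript Hnf4a (4.02 ± 0.91) was far above the reference. The 120-base stretches are from RefSeq (GRCm38.p6), on the strand of the gene, and lie within a window of 250 bases before to 50 bases after the first listed start. Capitals mark the match to CAAAGTCCA.

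Cyp3a41a, chr5:145720168-145720287, minus strand: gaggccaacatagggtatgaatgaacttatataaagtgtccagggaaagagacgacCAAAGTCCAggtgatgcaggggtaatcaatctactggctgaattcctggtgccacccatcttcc
Cyp3a16, chr5:145469759-145469878, minus strand: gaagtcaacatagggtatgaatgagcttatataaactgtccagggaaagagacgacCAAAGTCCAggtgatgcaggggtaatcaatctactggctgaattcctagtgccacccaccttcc

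The matches began at positions -95 and -99 from the start, in that order. The stretches of Cyp3a41a and Cyp3a16, neighbours in the Cyp3a cluster, shared 114 of 120 bases, and their transcripts are also alike, so their probes may share signal. Both strands of 1 window per gene were searched. CAAAGTCCA was in 12 of the 407 windows matched to the 540 far higher genes (2.95%), in 56 of the 11823 windows of all tested genes (0.474%) and in 129 of 27025 windows of the whole table (0.477%). These are shares of windows that hold the letters and say nothing of binding.

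The hepatocyte markers were higher in liver at all 18 tested genes, as the tissue label would have it. All passed, 17 of them at least 8-fold, with a median of 4.14 against 0.03 over all genes. For this and every later list, the shares over all genes were 36.6% higher, 35.4% lower and 3.64% at least 8-fold higher. The list median was 4.27, 4.45, 5.10 and 4.46 on arrays 881, 832, 522 and 391 and 2.42 on array 616. In whole tissue, fewer cells of a type and less RNA per cell cannot be told apart. Alb, the main plasma protein, had one of the smaller ratios, 2.57, 2.54, 3.46, 3.18 and 2.07 on arrays 881, 832, 522, 391 and 616, a mean of 2.76 ± 0.56. Ttr, the carrier of thyroxine and of retinol-binding protein, reached 4.64 ± 0.93, and Apoa1 of high density lipoprotein reached 3.74 ± 0.88. Apoh had the highest mean of the list, 5.87 ± 2.07, and the widest gap between array 616 (2.21) and the others (6.42 to 7.22).

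**Figure D2:**
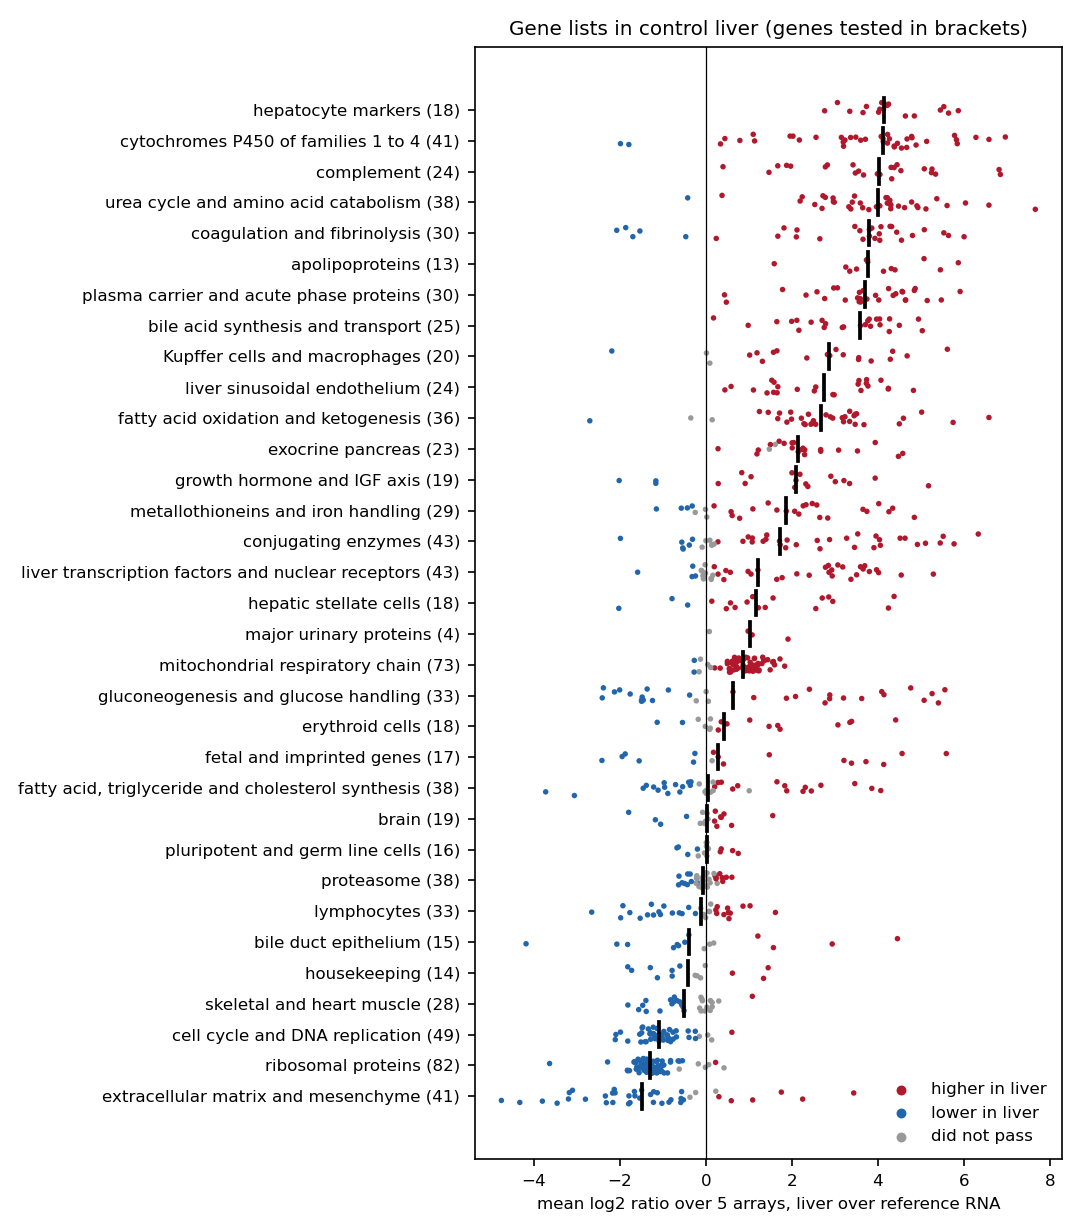
Mean log2 ratio over 5 arrays of each tested gene in 33 gene lists, ordered by the list median (black bar), with red for genes higher in liver, blue for lower and grey for genes that did not pass. The hepatocyte and P450 lists stand at the top (4.14 and 4.12), lipid synthesis lies near 0 (0.06), and the matrix, ribosomal and cell cycle lists lie at the bottom, at -1.49, -1.29 and -1.09.

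Secreted proteins of the blood were high as a group. All 30 tested plasma carriers and acute phase proteins passed as higher, with a median of 3.70, from Ambp (5.91 ± 1.35), the precursor of a plasma lipocalin and a protease inhibitor, down to the orosomucoids Orm2 (0.48 ± 0.34) and Orm1 (0.43 ± 0.26). The orosomucoids, abundant in plasma during inflammation, are close copies whose probes may share signal, and Orm2 lost its call without array 881, 832 or 522 (adjusted p = 0.0534, 0.0525 and 0.0546). The 13 tested apolipoproteins were all higher, with a median of 3.77 from Apoh and Apob (5.46 ± 0.98) to the intestinal Apoa4 (1.59 ± 0.65).

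The complement list was higher at all 24 tested genes, with a median of 4.02, though 1 gene entered the test through a bright liver channel only. Cfi, the protease that cuts C3b and C4b, had 7.50, 7.25, 7.68 and 7.66 on arrays 881, 832, 522 and 391 and 4.16 on array 616. C4bp, the plasma cofactor of that protease, had 7.13, 7.22, 7.34 and 7.15, and 5.25 on array 616. These regulators had the highest means of the list, followed by the membrane attack component C8a (5.34 ± 0.57), while C6 of the same complex was at 1.47 ± 0.40. Cfd, a fat tissue product, was the lowest at 0.40 ± 0.29 and was not well above background in the reference on any array. Its call was lost without array 881, 832 or 391 (adjusted p = 0.0604, 0.0579 and 0.0685).

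Coagulation genes lay on both sides of the reference. Of 30 tested genes, 25 were higher and 5 lower, with a median of 3.80. F13b (6.01 ± 0.48), Fgg (5.64 ± 1.65) and Serpinc1 (5.54 ± 1.38), a clotting factor subunit, a fibrinogen chain and antithrombin, led the hepatocyte products. The lower genes included F13a1 (-0.47 ± 0.33), the tissue factor gene F3 (-1.53 ± 0.24), Plau (-1.70 ± 0.35) and Plat (-1.86 ± 0.57), which encode a transglutaminase of blood cells, the trigger of clotting on non-vascular cells and the plasminogen activators.

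Amino acid breakdown and the urea cycle were high at 37 of 38 tested genes, with a median of 4.01. Otc, the mitochondrial urea cycle enzyme, had 6.71, 6.68, 6.54 and 6.41 on arrays 881, 832, 522 and 391, and its spot was an outlier and left out on array 616. Aass, which starts lysine breakdown, reached 6.04 ± 0.61. The 1 lower gene was Mat2a (-0.42 ± 0.29), the S-adenosylmethionine synthetase of other tissues, beside Mat1a (4.93 ± 0.90), that of hepatocytes. The call of Mat2a was lost without array 832 (adjusted p = 0.0514) or 391 (0.0515) and with median centring (0.268).

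For several steps of glucose handling the liver form of an enzyme was high and the form of other tissues low. The list as a whole was mixed, with 17 of 33 genes higher (51.5%) and 13 lower (39.4%), against 36.6% and 35.4% over all genes. The median was 0.63, which was 1.12 over the probes above the limit in both channels on all 5 arrays. The liver glycogen synthase Gys2 had 5.38, 5.42, 5.42 and 5.42 on arrays 881, 832, 522 and 391 and 3.75 on array 616. The muscle form Gys1 had -1.76, -1.63, -2.04 and -1.53, and -0.43 on array 616. The pair thus lay on opposite sides of 0 on all 5 arrays, at means of 5.08 ± 0.74 for Gys2 and -1.48 ± 0.61 for Gys1.

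The same held for the glucose transporters (Slc2a2 5.26 ± 1.11, Slc2a1 -2.41 ± 1.12). Of the hexokinases of other tissues, Hk1 was at -0.87 ± 0.62 and Hk2 at -1.49 ± 0.56. Hk1 was above 0 on array 616 alone, at 0.18. Pyruvate kinase showed a smaller difference on the liver side, with Pklr at 1.12 ± 0.36 and Pkm at -1.46 ± 0.63. The muscle forms Fbp2 (0.06 ± 0.11) and Pygm (0.01 ± 0.11) did not pass, while the liver forms Fbp1 (5.56 ± 1.41) and Pygl (5.41 ± 0.69) were 47.2-fold and 42.5-fold above the reference. Pfkp (-2.12 ± 1.02), the platelet form of phosphofructokinase, was among the 3 lowest genes with Slc2a1 and the glycolytic Aldoa (-2.38 ± 1.14).

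**Figure D3:**
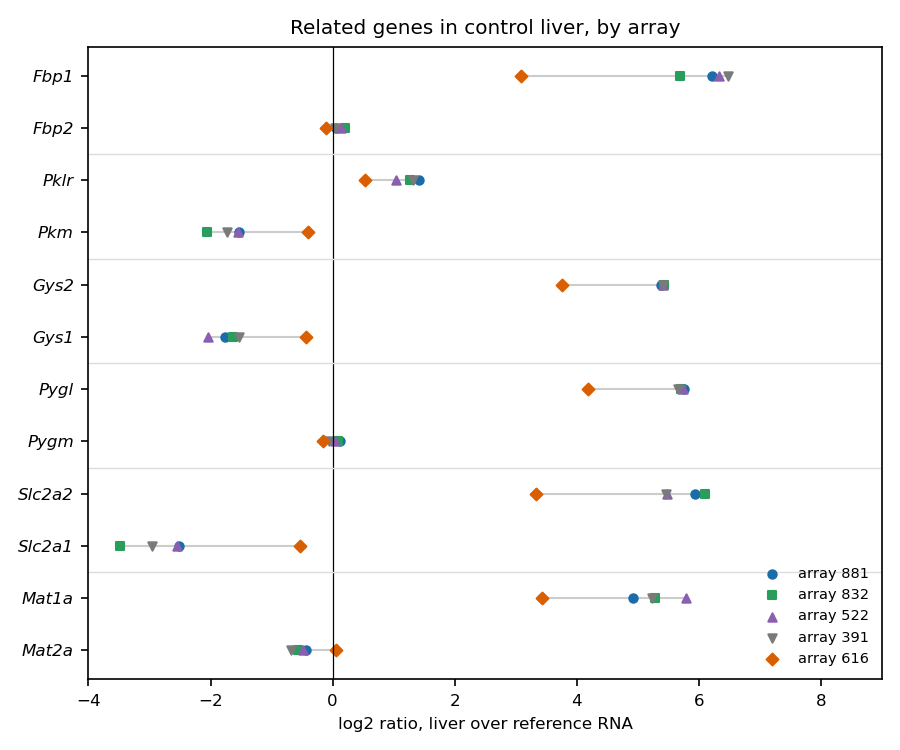
Log2 ratio of liver over reference RNA on each array for related genes of glucose and methionine metabolism, with rules between the pairs and a grey line from the lowest to the highest array. The liver form lies above the other form in each pair, on array 616 too (Gys2 3.75, Gys1 -0.43).

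Fatty acid oxidation and ketogenesis, the main fuel path of suckling pups, were high at 33 of 36 tested genes, with a median of 2.68. Cyp4a14, an omega-hydroxylase and target of the receptor PPAR alpha, had 6.79, 6.65, 7.18 and 6.85 on arrays 881, 832, 522 and 391 and 5.44 on array 616. Fabp1, the fatty acid binding protein of liver, reached 5.75 ± 1.87 and Acsl1, which activates long chain fatty acids, 5.02 ± 0.43. The 1 lower gene was Oxct1, which ketone-burning tissues need to use ketone bodies, at -3.06, -3.26, -3.13, -3.30 and -0.75 on arrays 881, 832, 522, 391 and 616. Cpt1b of muscle (0.15 ± 0.37) and Fgf21 (-0.35 ± 0.41) did not pass.

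Lipid synthesis genes were called about as often as all genes. Of 38 tested genes 15 were higher and 15 lower, 39.5% each way against 36.6% and 35.4% over all genes. The median was 0.06, which lay below 0 with the processed signals, with median centring and with array 832 as labelled. It was 0.21 with dye orientation as a term. Dgat2 (4.07 ± 0.29), which makes triglyceride, Mlxipl (3.86 ± 0.72), a carbohydrate response factor, and the sterol enzyme Sc5d (3.46 ± 0.36) were the highest. Scd2, a desaturase used outside adult liver, had -4.23, -4.56, -4.31 and -4.33 on arrays 881, 832, 522 and 391 and -1.19 on array 616. Sqle, an early enzyme of the sterol branch, was at -3.06 ± 0.87, and Mvd of the mevalonate path at -1.46 ± 0.56. Fasn (-0.88 ± 0.30) was lower as well, and Scd1 (-0.15 ± 0.31) did not pass.

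Bile acid genes were higher at all 25 tested genes, with a median of 3.60. Of the 25, 3 entered the test through a bright liver channel only, which favours a call as higher. Abcb11, the canalicular export pump, reached 5.03 ± 0.77 and Baat, which conjugates bile acids, 4.95 ± 0.31. Cyp7a1, the rate-limiting enzyme of synthesis, was at 3.83 ± 0.71 and highest on array 832 (5.01, with 3.14 to 3.80 on the others). Slc51b (1.65 ± 0.32) and Abcc3 (0.99 ± 0.29) were lower on the list, and Abcc3 lost its call with median centring (adjusted p = 0.125). The ileal transporter Slc10a2 (0.18 ± 0.08) was not well above background in the reference on any array, and its call was lost without array 881, 832 or 522 (adjusted p = 0.0720, 0.0650 and 0.0652) and with median centring (0.150).

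The cytochromes P450 of families 1 to 4 were higher at 39 of 41 tested genes, with a median of 4.12 and 30 genes at least 8-fold higher. Cyp3a41a had 7.51, 7.43, 7.72 and 7.56 on arrays 881, 832, 522 and 391 and 4.61 on array 616, and Cyp3a16 reached 6.28 ± 1.42. Cyp2b9 (4.55 ± 0.60) and Cyp2b13 (4.38 ± 0.98) were far above the reference as well. These 4 genes are known as predominant in adult females or in young mice, and the pups were males before puberty. Cyp4a12a, an adult male form, was at 0.44 ± 0.21. The lower genes were Cyp2s1 (-1.79 ± 0.57) and Cyp1b1 (-1.99 ± 0.69), forms found outside the liver. Members of a Cyp subfamily share long stretches of sequence, so the values of single members are uncertain.

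Conjugating enzymes were higher at 31 (72.1%) and lower at 6 (14%) of 43 tested genes, against 36.6% and 35.4% over all genes. Their median was 1.73. Sult1d1 (6.34 ± 0.51) and Sult1a1 (5.77 ± 0.86), cytosolic sulfotransferases, and Ugt2b5 (5.52 ± 0.82), a glucuronosyltransferase, led the list. Its lowest genes were Mgst2 (-1.99 ± 0.75), Gstm5 (-0.56 ± 0.12) and Gsto2 (-0.54 ± 0.13), glutathione transferases of other tissues. The major urinary proteins, an adult male product under growth hormone, had a median of 1.03, and of 2.05 with the processed signals. Mup3 was at 1.91 ± 0.37, Mup1 at 1.08 ± 0.43 and Mup4 at 0.98 ± 0.31, while Mup5 (0.08 ± 0.10) did not pass. The Mup genes are close copies of each other, so their probes cannot be told apart with certainty.

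Among the transcription factors and nuclear receptors, 29 of 43 were higher (67.4%) and 4 lower (9.3%), against 36.6% and 35.4% over all genes. Their median was 1.21. Foxa2, which opens liver chromatin, had 5.59, 5.50, 5.42 and 5.13 on arrays 881, 832, 522 and 391 and 4.81 on array 616. It was thus high on all 5 arrays, with array 616 the lowest. Hnf4a reached 4.02 ± 0.91. The lower factors included Nr1h2 (-0.24 ± 0.10), Nr2f1 (-0.30 ± 0.17) and Cebpd (-1.59 ± 0.81), of which Nr2f1 was not well above background in liver on any array and lost its call with median centring (adjusted p = 0.109). The thyroid hormone receptors were near the reference, Thrb at 0.28 ± 0.17 and Thra at -0.02 ± 0.19, which did not pass.

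The growth hormone and IGF axis was higher at 16 (84.2%) and lower at 3 (15.8%) of 19 genes, against 36.6% and 35.4% over all genes. Its median was 2.10. Igfbp1 (5.18 ± 1.41) and Igf1 (3.94 ± 0.60), the circulating growth factor, stood highest, followed by Igfbp2 (3.34 ± 0.40). The receptor Igf1r, which hepatocytes hardly use, was lowest at -2.36, -2.46, -2.25, -2.21 and -0.80 on arrays 881, 832, 522, 391 and 616. Jak2 (-1.16 ± 0.19) and Igfbp6 (-1.16 ± 0.37) were lower too.

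Fetal and imprinted genes fell in separate groups. Of 17 tested, 10 were higher (58.8%) and 6 lower (35.3%), against 36.6% and 35.4% over all genes. The median was 0.29, which was 0.10 with median centring and 0.12 with the processed signals. Slc38a4, an imprinted amino acid transporter, was highest at 5.59 ± 0.31. Afp, the albumin of the fetus, had 5.50, 4.91, 4.82 and 4.25 on arrays 881, 832, 522 and 391 and 3.35 on array 616, a mean of 4.56 ± 0.81, and Gpc3 followed at 4.14 ± 0.75. In contrast the oncofetal RNA-binding protein Igf2bp2 (-1.95 ± 0.62), Dlk1 (-1.88 ± 0.84) and the chromatin protein Hmga2 (-2.42 ± 1.03) were lower than the cell line pool.

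Of the metallothionein and iron genes, 22 of 29 were higher (75.9%) and 4 lower (13.8%), against 36.6% and 35.4% over all genes. Their median was 1.87. Hpx, the haem scavenger (4.85 ± 0.89), the iron exporter Slc40a1 (4.35 ± 0.20) and Tfr2 (4.26 ± 0.62), a sensor of iron-loaded transferrin, were the highest. The hepcidin genes, which encode the iron hormone, had smaller ratios, Hamp2 at 2.48 ± 0.43 and Hamp at 0.59 ± 0.34, and are close copies. The storage chains Fth1 (-1.15 ± 0.81) and Ftl1 (-0.43 ± 0.19) and the haem oxygenase Hmox1 (-0.57 ± 0.22) were below the reference with Mt4 (-0.32 ± 0.26), and the first 3 of these 4 lost their call with median centring (adjusted p = 0.198, 0.306 and 0.0791).

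Of the 540 far higher genes 233 were in at least 1 list, and the others stood outside the lists. The highest outside them beyond the 15 above were Hao1 (6.01 ± 0.68), a peroxisomal glycolate oxidase, and the amylase gene Amy1 (6.00 ± 1.38). Among the 40 highest was also Dio1 (5.23 ± 0.73), the deiodinase that makes triiodothyronine in liver.

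The lowest ratios belonged to genes of several kinds. Of the 29 genes at least 8-fold lower, 11 were in at least 1 list, and expression in single lines of the pool was not measured. Ifi202b, an interferon-inducible protein, had -5.70, -5.82, -6.04 and -5.36 on arrays 881, 832, 522 and 391 and -3.27 on array 616. S100a4, a calcium-binding protein of motile cells, had -5.27, -6.46, -5.37 and -5.48, and -1.20 on array 616. The groups of values again differed between array 616 and the rest, and the means were -5.24 ± 1.13 and -4.75 ± 2.04. S100a6, Spp1, Vim, Scd2, Il1rl1, Rpl39l, Cav1, Anxa1, Prl2c5, Lox, Lgals1 and Col8a1 were also among the 15 lowest, whose means were -3.16 or less, with limma adjusted p from 1.88e-05 to 0.00295. Vim, the intermediate filament of mesenchyme, had -4.37, -4.96, -4.57 and -4.70, but -0.41 on array 616.

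The matrix and mesenchyme list was lower at 32 of 41 tested genes and higher at 6, with a median of -1.49. Its list median was -1.76, -1.57, -1.79 and -1.56 on arrays 881, 832, 522 and 391 and -0.43 on array 616. Col1a1, a chain of fibrillar collagen, was at -2.16 ± 1.01. The exceptions were Lum (3.44 ± 0.51), a collagen-binding proteoglycan, Postn (2.25 ± 0.14) and Eln (1.76 ± 0.33). Lum was highest on array 616, at 4.31 against 3.08 to 3.49.

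Cell division genes were lower in liver at 45 (91.8%) and higher at 1 (2.04%) of 49 tested genes, against 35.4% and 36.6% over all genes. The median was -1.09. At least 8-fold lower were 0 genes, but only 0.196% of all genes were, so this does not set the list apart. Cdt1, which licenses replication origins, had -2.05, -2.36, -2.45, -2.36 and -1.31 on arrays 881, 832, 522, 391 and 616. The kinetochore genes Bub1 (-2.09 ± 0.35) and Cenpe (-1.99 ± 0.71) were next. Mcm10 (0.14 ± 0.09), Tk1 (0.04 ± 0.16) and Ccne1 (-0.15 ± 0.18) did not pass.

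Promoters of the cell cycle genes are shown for contrast, since they held the CCAAT letters (both strands, capitals, ATTGG on the other strand) often. Bub1 and Ccnb1, whose ratio was -1.47 ± 0.43, each had 2 matches.

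Bub1, chr2:127831866-127831985, minus strand: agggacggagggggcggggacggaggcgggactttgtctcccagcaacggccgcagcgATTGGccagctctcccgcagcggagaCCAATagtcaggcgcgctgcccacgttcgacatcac
Ccnb1, chr13:100786524-100786643, minus strand: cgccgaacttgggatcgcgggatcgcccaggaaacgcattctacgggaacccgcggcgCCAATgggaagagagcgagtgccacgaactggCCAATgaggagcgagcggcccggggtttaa

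CCAAT was in 27 of the 37 windows of lower cell cycle genes (73.0%), in 172 of the 407 windows of far higher genes (42.3%) and in 4591 of the 11823 windows of tested genes (38.8%). TTCCCGCC, the E2F letters, was in 5 of the 37 (13.5%), 5 of the 407 (1.23%) and 404 of the 11823 (3.42%). CAAAGTCCA was in 0 of the 37, but only 0.474% of the windows of tested genes held it, so this does not set these genes apart.

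Lymphocyte genes were higher at 11 (33.3%) and lower at 16 (48.5%) of 33, against 36.6% and 35.4% over all genes. Of the 33, 4 entered the test through a bright liver channel only and 2 through a bright reference channel only. The median of the lymphocytes was -0.12, and it was -0.51 with the processed signals, -0.31 with median centring and -0.40 over probes above the limit in both channels on all 5 arrays. Cd3e, a T cell receptor chain, was highest at 2.02, 1.72, 0.89 and 1.84 on arrays 881, 832, 522 and 391, with the spot on array 616 left out, and the B cell genes Blnk (-2.65 ± 0.72) and Ms4a1 (-1.98 ± 0.55) were lowest. Of the pluripotent and germ line genes, 8 were dim in both channels. Of the 16 tested, 4 were higher and 4 lower (25% each way), and the median was 0.02. Dnmt3b (0.75 ± 0.30) was the highest and Inha (-0.67 ± 0.30) the lowest.

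The resident cells of the sinusoid were clearly above the pool. All 24 endothelial genes were higher, with a median of 2.76, though 2 of them entered the test through a bright liver channel only. Mmrn2, an endothelial matrix protein, had 5.16, 5.31, 4.97 and 4.85 on arrays 881, 832, 522 and 391 and 3.86 on array 616, followed by Gpr182 (4.25 ± 0.56) and the lectin Clec4g (4.24 ± 0.41). Of the Kupffer cell and macrophage genes, 17 of 20 were higher, with a median of 2.86. Cd5l, secreted by tissue macrophages, had 5.62, 5.86, 6.05 and 5.63, and 4.92 on array 616, and the scavenger receptor Marco reached 4.68 ± 0.59. The 1 lower macrophage gene was Cd14 (-2.19 ± 0.41), the coreceptor for endotoxin, and Itgam (0.02 ± 0.10) and Msr1 (0.09 ± 0.07) did not pass.

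Stellate cell genes were higher at 15 (83.3%) and lower at 3 (16.7%) of 18. Their median was 1.16 (1.85 with the processed signals), and Colec11 (4.38 ± 0.64) and Reln (4.25 ± 0.39) led the list. Pdgfra (-2.02 ± 0.77), Des (-0.79 ± 0.19) and Pdgfrb (-0.42 ± 0.22) were lower. Bile duct genes went the other way, with 4 higher (26.7%), 8 lower (53.3%) and a median of -0.39. Over all genes 36.6% were higher and 35.4% lower. Spp1 (-4.18 ± 1.78), Epcam (-2.07 ± 0.78) and Krt19 (-1.82 ± 0.84) were lowest and Krt23 (4.46 ± 0.61) highest. Of 18 erythroid genes 11 were higher (61.1%) and 2 lower (11.1%), with a median of 0.43, which was 1.32 with the processed signals. Of the 18, 2 entered the test through a bright liver channel only. The haem enzyme Alas2 (3.35 ± 0.57) and the globins Hbb-bt (4.42 ± 1.32) and Hba-a1 (3.07 ± 0.68) were high, while Rhd (-1.13 ± 0.31) and Ank1 (-0.54 ± 0.13) were lower. The globin copies are close in sequence.

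Muscle genes were mostly lower or near the reference, and brain genes lay around it. Of 28 muscle genes 15 were lower (53.6%) and 1, the atrial light chain Myl7 (1.08 ± 0.29), was higher (3.57%). The muscle median was -0.52 (-1.17 with the processed signals), with Actn3 (-1.81 ± 0.62) lowest. Of 19 brain genes 8 were higher (42.1%) and 4 lower (21.1%), with a median of 0.03, from Syt1 (1.56 ± 0.33) to Eno2 (-1.79 ± 0.77). Over all genes 36.6% were higher and 35.4% lower.

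Housekeeping classes differed from each other. Ribosomal protein genes were lower at 76 of 82 and higher at 1, with a median of -1.29. The list median was -1.40, -1.97, -1.48 and -1.59 on arrays 881, 832, 522 and 391 and -0.04 on array 616, where the shift was thus not seen. The testis-type copy Rpl39l was lowest at -3.63 ± 0.93, then Rpl14 (-2.28 ± 0.94) and Rpl37 (-1.83 ± 0.80). Rpl7l1 (0.23 ± 0.08) was the 1 gene that passed as higher and turned to -0.10 with median centring.

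Respiratory chain genes were higher at 67 of 73 and lower at 2, with a median of 0.86. The list median was 0.96, 0.74, 0.91 and 0.86 on arrays 881, 832, 522 and 391 and 0.79 on array 616, so array 616 did not stand apart here. Uqcrfs1, the Rieske protein of complex III, was highest at 1.83 ± 0.25. The 2 lower genes were Cox8a (-0.27 ± 0.13), which turned to 0.03 with the processed signals, and Atp5g2 (-0.27 ± 0.11), which lost its call there (adjusted p = 0.236). Proteasome genes were higher at 8 (21.1%) and lower at 9 (23.7%) of 38, against 36.6% and 35.4% over all genes. Their median was -0.07 (-0.18 with median centring). The range was from -0.63 (Psmc6) to 0.61 (Psmd9), and both genes lost their call with median centring (adjusted p = 0.126 and 0.423). Single reference genes were not level, with Tfrc at 1.45 ± 0.38, Actb at -0.60 ± 0.16 and Pgk1 at -1.73 ± 0.83, and the list of 14 had a median of -0.43.

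The weakness of array 616 was not even over the array. Among probes at least 8-fold higher on the other 4 arrays, a probe's ratio on array 616 was at the median 78.1% of its mean on the others in the dimmest of 4 equal groups of probes and 64.5% in the brightest. Among probes at least 2-fold lower on the others, this share was 47.8% in the dimmest group and 29.5% in the brightest. Within each of these sets the share was thus smallest among the brightest probes. The sets were chosen at different thresholds, so their shares are not compared with each other. With array 616 left out, the median SD of a probe fell from 0.174 to 0.132, and all 33 list medians kept their sign. What made this array weaker was not tested.

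**Figure D4:**
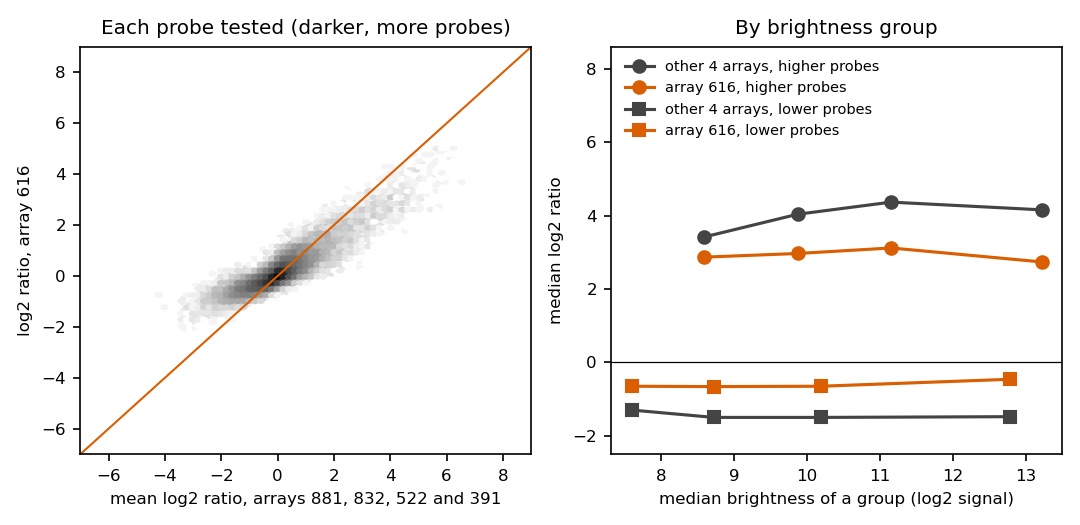
Left, log2 ratio on array 616 against the mean of arrays 881, 832, 522 and 391 for each tested probe, with a line of equality. Right, median ratio of probes at least 8-fold higher (circles) or at least 2-fold lower (squares) on the other 4 arrays, in 4 groups by brightness, with array 616 in orange. Its medians for the higher probes are 2.87, 2.97, 3.12 and 2.74 from the dimmest to the brightest group, against 3.42, 4.04, 4.37 and 4.16 on the others.

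The largest differences among the livers were in genes of the exocrine pancreas. Among the 10 genes with the largest SD over the 4 arrays other than 616 were Cpb1, Reg1, Cela3b, 2210010C04Rik, Prss3, Cela1, Clps, Zg16 and Prss2. Cpb1, a pancreatic carboxypeptidase, had 6.51 and 6.39 on arrays 832 and 522, 4.49 on array 616, and 0.19 and 0.06 on arrays 881 and 391. The list median over 23 tested pancreas genes was 3.86, 3.98 and 2.45 on arrays 832, 522 and 616, against 0.21 and 0.11 on arrays 881 and 391. Of the 23, 21 passed as higher (91.3%), against 36.6% over all genes. Of the 10 genes, 9 passed as higher and all 9 lost the call when array 832 or array 522 was left out, and Clps also without array 616. Cela1 did not pass (adjusted p = 0.115). Pnliprp1 (4.44, 4.83, 5.33, 4.27 and 3.52 on arrays 881, 832, 522, 391 and 616) and Amy2a5 (4.49, 5.07, 5.78, 4.67 and 2.89) were high on all 5 arrays, and Amy2a5 shares sequence with the liver amylase Amy1.

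Beyond the pancreas genes, array 522 stood apart for several stress and metabolic genes. Of 34 genes with an SD above 1 over the 4 arrays, 19 were on the pancreas list. Outside that list, 2210010C04Rik, Klk1b3, Tff2 and Ins2 were likewise highest on arrays 832 and 522. Ins2 was at 2.65 and 2.21 there, and at 0.18, 0.14 and 0.20 on arrays 881, 391 and 616. Cxcl1, a neutrophil chemokine, was at 2.02 on array 522 and at -2.29, -1.95, -1.90 and -0.98 on arrays 881, 832, 391 and 616. Lpin1, a phosphatidate phosphatase induced by fasting, was at 3.75 on array 522 and lower elsewhere, down to -0.53 on array 832. Saa1, an acute phase protein, was at 3.23 on array 522 and between 1.11 and 1.62 on the other arrays, and Mt2 at 2.47 against 0.21 to 1.16. Rgs16 (2.08 against -0.76 to 0.17) and Gadd45g (0.95 against -1.36 to 0.22) were highest on the same array, and Ephx1, an epoxide hydrolase, was lowest there (-1.86 against -0.61 to 0.50). Cxcl1 and the genes after it were picked for their values on array 522, and what made the difference was not tested.

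**Figure D5:**
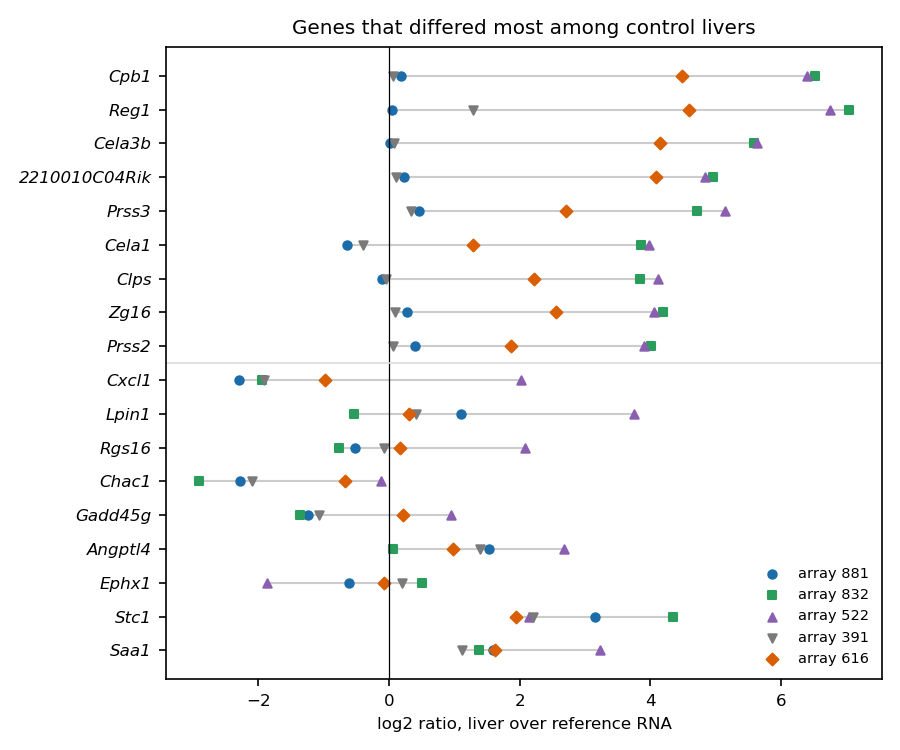
Log2 ratio of liver over reference RNA on each array for genes among the 10 with the largest SD over the 4 arrays other than 616 (above the rule) and for other genes that differed among livers (below it), with a grey line from the lowest to the highest array. Pancreas genes such as Cpb1 are high on arrays 832 (6.51), 522 (6.39) and 616 (4.49) and near 0 on the other arrays, while Cxcl1 is high on array 522 alone (2.02).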

How the data were processed

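RNA of 5 control livers and of the reference was hybridised to Agilent mouse 4x44K arrays, and the deposited scanner files hold the intensity of each spot, extracted by the authors with Feature Extraction 10.1.1.1. Median intensities of both channels were background-corrected in limma 3.58.1 (R 4.3.3) by normexp with an offset of 50, and each array was normalised by loess with a span of 0.2, with control spots at weight 0 and outlier spots left out. Spots of a probe were averaged. A probe was tested if 1 channel exceeded a limit set from the negative control spots (their mean plus 3 SDs after trimming 5% at each end) on at least 4 of 5 arrays, which kept 32694 of 41174 probes. Of these, 1743 passed through the liver channel only and 1614 through the reference channel only, which favours a call toward that channel. Mean ratios were tested against 0 with limma's moderated statistic, two-sided, with Benjamini-Hochberg adjustment over all tested probes. Probes were named by accession through RefSeq (63.8% of tested probes), and the brightest tested probe stood for a gene. Probes of 206 of 4828 genes with several probes passed in both directions. The fit was tested on simulated data. The number of arrays limits the precision. Named genes were the 3 highest and 3 lowest of each list, the 15 highest and 15 lowest of the table, the 10 with the largest SD without array 616, and Alb, Afp, Ttr and Apoa1. Others were chosen after their values were seen. The members and gene lists were chosen with earlier results of these data known. Alternatives were the channels as labelled, a dye term, other background, signal, normalization and filter settings, array weights and each array left out. Some genes that this rule names are not reported here. Hypothyroid arrays and miRNA assays were not used.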

Additional observations from a re-analysis of the deposited data

Results flagged for a closer look

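Array 616 stood apart from the other 4 arrays, by the gap to its nearest neighbour as a share of the whole range, in 9 of 33 list medians and in 69 of the 216 named genes with a value on all 5 arrays. Array 522 stood apart for 1 gene, and arrays 881, 832 and 391 for none. For independent random groups of 5 values chance flags about 1 in 20. The named genes were mostly chosen for extreme ratios or spread, and genes and lists share the same arrays. This rate is therefore no yardstick for the counts above, and the share over all tested genes was not computed. In each of these 9 lists array 616 lay closer to 0. Its median log2 ratio was 3.03 for complement, 2.58 for coagulation and fibrinolysis, 2.82 for urea cycle and amino acid catabolism, 0.20 for gluconeogenesis and glucose handling, 2.02 for fatty acid oxidation and ketogenesis, 2.80 for cytochromes P450 of families 1 to 4, 1.26 for conjugating enzymes and 2.05 for liver sinusoidal endothelium. For extracellular matrix and mesenchyme it was -0.43, against -1.79 to -1.56 elsewhere.

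Among genes higher in liver, the log2 ratio on array 616 was 2.21 for Apoh, 2.74 for Fgg, 3.13 for Serpinc1, 2.03 for Apoc3, 3.77 for Apob, 4.16 for Cfi, 5.25 for C4bp and 0.97 for C1s1. It was 3.09 for Fbp1, 4.18 for Pygl, 3.33 for Slc2a2, 2.48 for Fabp1, 2.58 for Mlxipl, 3.71 for Abcb11, 4.61 for Cyp3a41a and 3.77 for Cyp3a16. Further values on array 616 were 4.28 for Sult1a1, 4.10 for Ugt2b5, 2.69 for Igfbp1, 2.89 for Igf1, 3.17 for Tfr2, 1.19 for Eln, 3.25 for Gpr182 and 3.52 for Clec4g. The array had 3.67 for Marco, 3.26 for Colec11, 2.08 for Onecut2, 2.11 for Hbb-bt, 2.35 for Alas2, 5.03 for Rgn, 4.76 for Akr1c6 and 4.39 for Aadac. Other values there were 3.54 for Sult2a2, 4.06 for Slc27a2, 3.31 for Pon1 and 3.0 for Ttr. All of these lay closer to 0 than on any other array.

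Among genes lower in liver, the log2 ratio on array 616 was -0.31 for Pfkp, -0.39 for Aldoa, -0.75 for Oxct1, -0.47 for Mvd, -1.53 for Sqle, -1.19 for Scd2, -0.81 for Cyp2s1 and -0.83 for Jak2. Other ratios below 0 on it were -0.80 for Igf1r, -0.43 for Dlk1, -0.62 for Hmga2, -1.49 for Bub1, -0.41 for Vim, -1.74 for S100a6, -1.20 for S100a4 and -0.77 for Lat. The same array gave -0.67 for Pdgfra, -1.05 for Spp1, -0.42 for Mbp, -0.44 for Eno2, -0.86 for Gusb, -0.29 for Pgk1, -0.10 for Rplp0 and -0.63 for Rpl14. Array 616 also had -1.98 for Rpl39l, -3.27 for Ifi202b, -0.80 for Il1rl1, -0.54 for Cav1, -1.99 for Anxa1 and -0.47 for Lgals1. These too were the values closest to 0.

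Saa1 was flagged on array 522, at 3.23 against 1.11 to 1.62 on the other arrays. What set these arrays apart was not tested.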

How the results depend on the processing

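With array 832 as labelled, 0 probes were higher, lower, far higher or far lower, against 10568, 10622, 713 and 40, and the median SD of a probe was 0.350 in place of 0.174. With the processed signals, 1356 probes were far higher and 463 far lower, the median SD was 0.332, and the share of far calls that were higher was 74.5% in place of 94.7%. With median centring, 4900 probes were higher, 71 were far lower, the share of calls that were higher was 40.3% in place of 49.9%, and the median SD was 0.395. With the probes of a gene averaged, which leaves fewer items to test, 5332 were higher, 5329 lower and 20 far lower. Array quality weights gave 73 far lower probes. Leaving out 1 array gave 8707 to 11132 higher, 9065 to 11231 lower, 692 to 808 far higher and 27 to 86 far lower probes. Leaving out arrays 616 and 832 together, chosen after seeing the data, gave 84 far lower. The other 62 counts and spreads computed moved by less than 1.5 times. Rpl7l1 turned to -0.10 with median centring and Cox8a to 0.0332 with the processed signals, neither past the threshold. Of the other named-gene values, 310 lost the threshold, 204 of them with array 832 as labelled, and 13 gained it. Of the list medians under these settings 440 moved by less than the spread between arrays and 55 by more, 26 of them with array 832 as labelled and 15 with the processed signals. The spread was the SD of a list median over all 5 arrays, array 616 included. It was wide for some lists, at 1.01 for hepatocyte markers and 1.89 for the exocrine pancreas. The pancreas median ran from 0.59 to 2.78 over the settings without a move beyond this spread. With the processed signals the median went from 0.43 to 1.32 for erythroid cells, from 1.16 to 1.85 for stellate cells, from -0.52 to -1.17 for muscle, from -0.12 to -0.51 for lymphocytes and from 1.03 to 2.05 for the major urinary proteins. Over probes above the limit in both channels on all 5 arrays, which leaves fewer genes, it went from 0.63 to 1.12 for glucose handling and from 0.43 to 1.02 for erythroid cells. The sign changed for lipid synthesis and for pluripotent and germ line cells, both near 0, and for no other list. The processed signals shifted the median of all genes by -0.149. Except as stated, the cause was not tested. No paired analysis was possible because only the control group was analysed.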
